A study of Mus musculus with 6 samples.

Results

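The S100 calcium-binding protein genes S100a1, S100a4, S100a6, S100a8, S100a9, S100a10, S100a11, S100a13 and S100b were followed through the cell types of the injured mouse rotator cuff enthesis, the site where tendon joins bone. They were matched by symbol, and all 9 were found among the 32285 genes counted. The samples were 6 single-cell libraries taken 7 days post injury (dpi) and repair, 3 from wild-type C57BL/6 mice and 3 from Nlrp3-/- mice, which lack the sensor protein of the NLRP3 inflammasome in every cell. Entheses were pooled, the number of animals behind a library is not given, and the mice were adults. The wild-type mice and the Nlrp3-/- mice came from different suppliers, so that genotype and origin cannot be told apart. The libraries were grouped by their titles. A second label calls Nlrp3-/- libraries 2 and 3 knockouts of other Nlrp genes, yet Nlrp3 was at 0 UMIs in all 3 Nlrp3-/- libraries and at 94.9, 165 and 138 CPM in wild-type libraries 1 to 3.

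S100 proteins are small EF-hand proteins found in vertebrates. Most of them form dimers, change shape when calcium binds and then attach to partner proteins inside the cell, such as annexins, myosin and cytoskeletal proteins. Some also leave the cell and act as danger signals on the receptors TLR4 and RAGE (the product of Ager). S100A8 and S100A9 together form calprotectin, which fills the cytosol of neutrophils and binds zinc and manganese that microbes need. In wounds and joints they are used as markers of myeloid inflammation, while S100B is known from glia and cartilage.

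Each library held 97042713 to 134901999 unique molecular identifiers (UMIs), and 9348 to 20946 barcodes per library were kept as cells. Levels below are CPM, in which the UMIs of a gene are summed over all cells of a type in a library and divided by the UMIs of all genes there, scaled to 1000000, so each type gives 6 values. Cell types were rebuilt from the counts, so a name such as macrophages is short for clusters that are macrophage-like by their marker genes, and no S100 gene was among the markers or the genes used to cluster. The study describes its replicates as independent, and the labels name no mice, so all p-values below measure the spread between libraries. Of 80831 cells, 70549 in 12 classes entered the comparisons. Nlrp3-/- library 1 stood apart, with a median of 1769.5 UMIs per cell against 3828 to 6673.5 in the other libraries, and 46.8% of its cells lay in clusters found almost only there and were set aside. Another 4765 of the cells that entered lay in sub-clusters led by genes of another class. Of the cell barcodes, 690 occurred in 2 libraries and 2 in 3. Xist, which is transcribed from an inactive X chromosome, was at 783 to 927 CPM in the Nlrp3-/- libraries and at most 0.102 CPM in the wild-type libraries, so that genotype and sex cannot be told apart in any comparison below.

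In the GENCODE annotation of mouse build GRCm38, 8 of the members lay on chromosome 3 and S100b on chromosome 10. S100a8 at chr3:90668978-90670035 (+) and S100a9 at chr3:90692632-90695721 (-) are neighbours on opposite strands, 22596 bp apart, and both are protein coding. S100a1 at chr3:90511034-90514392 (-) and S100a13 at chr3:90514435-90524581 (+) point away from each other, and S100a4 at chr3:90603771-90606045 (+) and S100a6 at chr3:90612882-90624181 (+) lie between these pairs. S100a11 at chr3:93520488-93526287 (+) and S100a10 at chr3:93555080-93564643 (+) lie farther along the chromosome, and S100b is at chr10:76253853-76261159 (+). S100a4 overlaps the predicted gene Gm42674 on its own strand, so its UMIs cannot be fully told apart from that gene, and S100b overlaps Dip2a on the opposite strand. Promoters of S100a8 and S100a9 are printed because the levels of this pair moved together across the cell types more closely than those of any other pair of members (Pearson's r = 0.998 over 12 classes that share libraries, as a description). Each stretch covers 250 bases before and 50 bases after the RefSeq start in build GRCm38.p6, at chr3:90668821-90669120 (+) for S100a8 and chr3:90695672-90695971 (-) for S100a9, read 5′ to 3′ on the strand of the gene. Capitals mark matches to the TATA box letters TATAAA and to the C/EBP letters TTGCNNAA, each searched on both strands and not overlapping each other.
S100a8: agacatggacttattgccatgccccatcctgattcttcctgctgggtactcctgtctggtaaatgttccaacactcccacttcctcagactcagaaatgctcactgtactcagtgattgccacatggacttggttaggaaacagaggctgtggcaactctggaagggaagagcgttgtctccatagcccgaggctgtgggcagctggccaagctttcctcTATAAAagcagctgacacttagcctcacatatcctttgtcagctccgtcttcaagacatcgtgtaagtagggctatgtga
S100a9: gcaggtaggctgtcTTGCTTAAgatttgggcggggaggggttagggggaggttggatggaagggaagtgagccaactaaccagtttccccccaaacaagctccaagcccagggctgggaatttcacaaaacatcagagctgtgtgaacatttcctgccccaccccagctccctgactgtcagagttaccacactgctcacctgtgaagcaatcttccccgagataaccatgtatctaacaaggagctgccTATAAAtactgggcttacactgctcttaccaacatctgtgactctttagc
The S100a8 window held TATAAA 30 bases before the start and no TTGCNNAA. In the S100a9 window TTGCNNAA began 236 bases before the start, and TATAAA began at the annotated start itself. Of the other members S100a4 held TATAAA, 31 bases before its start, and the remaining 5 windows held neither motif. Among all 32851 RefSeq promoter windows of this length, 13.6% held TATAAA, 10.8% held TTGCNNAA and 1.94% held both. The table held 8 of the 9 members. S100a1 and S100a13 shared 204 bases of their windows.

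S100a8 and S100a9 transcripts were concentrated in neutrophils. In neutrophils S100a8 was at 138325, 110342 and 104450 CPM in wild-type libraries 1 to 3 and at 93318, 94781 and 101755 CPM in Nlrp3-/- libraries 1 to 3. S100a9 was at 153218, 129069 and 144441 CPM in the wild-type libraries and at 122312, 129925 and 128482 CPM in the Nlrp3-/- libraries. Both genes together made up 21.6% to 29.2% of all neutrophil UMIs. Of the S100a8 and S100a9 UMIs in cells that entered, 88.5% to 90.9% per library lay in neutrophils and 5.61% to 9.36% in myeloid progenitors, the Elane and Mpo cells from which granulocytes and monocytes arise. Progenitors held 8132 to 20463 CPM of S100a8 and 9008 to 21306 CPM of S100a9, below the neutrophil value of the same library in 6 of 6. The step from neutrophils to progenitors was 3.15 ± 0.39 for S100a8 and 3.27 ± 0.41 for S100a9 on the log2(CPM + 1) scale (mean ± SD, n = 6 libraries, exact sign-flip permutation p = 0.03125 for each, which is the smallest that 6 libraries allow).

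Free RNA had to be set beside these values, since droplets without a cell also carried both transcripts. In the ambient pool, the barcodes with at most 100 UMIs, S100a8 stood at 30406, 12769.7 and 18858 CPM in the wild-type libraries and 8775, 14285 and 14049 CPM in the Nlrp3-/- libraries. S100a9 in that pool stood at 32137, 14417 and 23734 CPM and 10820.1, 16106 and 14971 CPM. Neutrophils exceeded the pool of their own library in 6 of 6 libraries, by 4.55-fold to 10.6-fold for S100a8. Progenitors were above it in 1 of 6 libraries for S100a8, and their difference from the pool did not pass (exact permutation p = 0.1875 over 6 libraries, which adjustment left the same).

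In none of the 10 other types, erythrocytes included, did S100a8 or S100a9 exceed the ambient level of any library. In all 10 types both genes lay below the ambient pool in 6 of 6 libraries (exact two-sided sign-flip permutation p = 0.03125, adjusted p = 0.0341 over 12 types and both genes). Macrophages were at 1274, 676 and 922 CPM of S100a8 in the wild-type libraries and 417, 429 and 477 CPM in the Nlrp3-/- libraries, which is 3% to 5.29% of the pool. S100a9 in macrophages was at 2.9% to 4.07% of the pool. Mesenchymal cells held 2.19% to 4.17% of the ambient S100a8 level and 2.36% to 4.49% of the ambient S100a9 level. Without sub-clusters led by genes of another class the mesenchymal values were 0.74% to 2.53% and 0.786% to 2.69%, with medians of 1.53% against 3.1% with them for S100a8 and 1.58% against 3.49% for S100a9. The 12 other neutrophil transcripts, among them Ngp, Camp, Ltf and Retnlg, had medians of 4.06% to 9.65% of their ambient level in macrophages and 3.22% to 5.73% in mesenchymal cells. Since S100a8 and S100a9 in these types lay under the level of the ambient pool, their values there are not read as expression. Progenitors, of which 1 library was above the pool, did not meet this rule either, so the comparison with the pool does not decide their values. A neutrophil sub-cluster of 564 cells, led by Fcnb and the progenitor markers Elane and Prtn3, held 103300 CPM of S100a8 over all its cells. This rule limits the reading, cannot tell expression in a type from free RNA, and does not show that the genes are absent there. When the ambient profile was subtracted, 0.544% to 1.24% of progenitor UMIs and 1.8% to 3.43% of macrophage UMIs were removed per library. In progenitors S100a8 stood at 0.498 to 1.6 times the pool. The same rule, with the same reservation, holds below for every member in a type where its level lay below the pool. Nlrp3-/- library 1 had the highest level of both genes in T and NK cells, B cells and plasmacytoid dendritic cells, with 2820.5 CPM of S100a9 in T and NK cells against 333 to 726 CPM in the other libraries.

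**Figure D1:**
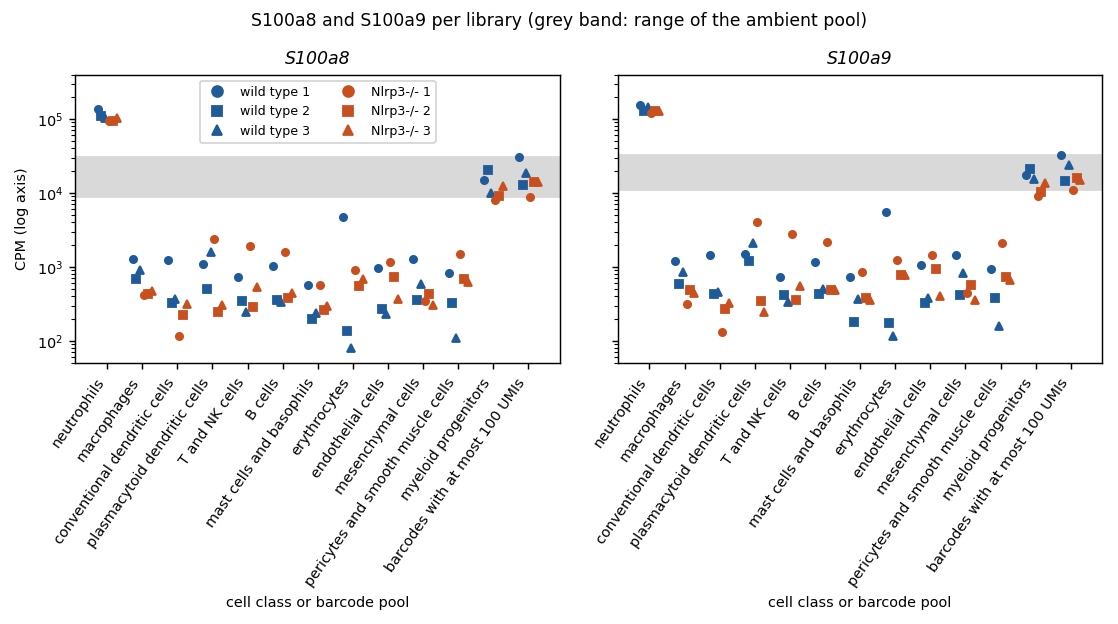
S100a8 (left) and S100a9 (right) in CPM on a log axis for 12 cell classes and the pool of barcodes with at most 100 UMIs, with 1 point per library. Wild-type libraries are blue, Nlrp3-/- libraries are orange, and the grey band spans the ambient pool over the 6 libraries. Neutrophils lie above the band in all 6 libraries, myeloid progenitors in or just below it, and the 10 other classes below it.

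The ratio of S100a9 to S100a8 was also compared with that of the pool. This comparison was added after the values had been seen. In the ambient pool the ratio was 1.06 to 1.26, in neutrophils 1.11 to 1.38, in mesenchymal cells 1.14 to 1.38 and in endothelial cells 1.09 to 1.64. In macrophages it was 0.751 to 1.13 and lay below the pool of the same library in 6 of 6 libraries. The mean log2 difference from the pool was -0.32 ± 0.25 (SD, n = 6) for macrophages, with an exact sign-flip permutation p of 0.03125 and an adjusted p of 0.0688 over 11 types, so it did not pass the threshold after adjustment. That p is the smallest that 6 libraries allow, so whether it passes depends on how many other types reach it too. In 1 library the difference was -0.0007, and with S100 genes allowed in the clustering or at Leiden resolution 2.0 the ratio was below the pool in 5 of 6 libraries (exact p = 0.0625). In neutrophils, B cells, endothelial cells and mesenchymal cells the ratio lay above the pool in 6 of 6 libraries, with mean log2 differences of 0.14, 0.15, 0.12 and 0.12 and the same p and adjusted p. In endothelial cells the lowest difference was 0.00024, and with at least 1000 UMIs per cell or at most 5% mitochondrial UMIs the ratio there was above the pool in 5 of 6 libraries (exact p = 0.0625).

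Within macrophages the ratio varied between sub-clusters, which are described here with no test. A sub-cluster of 1635 cells led by Plac8 and Ly6c2, genes of recently arrived monocytes, and by Il6 had ratios of 0.48 to 0.819 over 6 libraries, below every ambient value. Its S100a8 level was 475 to 1381 CPM. Another of 584 cells led by Prtn3, Ly6c2 and the cell-cycle gene Birc5 had ratios of 0.454 to 0.981 and held 641 to 6615 CPM of S100a8. In a sub-cluster of 630 cells led by Cxcl3, Saa3, Arg1 and Nos2 the ratio was 0.241 to 0.57 in the 3 libraries that held at least 20 of its cells, and 402 of the cells came from Nlrp3-/- library 1. By contrast, the Ccl8 and Vcam1 sub-cluster of 1934 cells, a resident-like pattern, had ratios of 1.12 to 1.4. The sub-clusters with the highest levels of both genes, at about 25630 CPM of S100a8 over 227 cells in macrophages and 10320 CPM over 239 cells in mesenchymal cells, were led by neutrophil genes such as Ngp, Camp and Retnlg. The former, with 75.3% of its cells from Nlrp3-/- library 1, was among the clusters set aside and is not in the macrophage values. All these S100a8 levels, apart from those led by neutrophil genes, stood below the ambient pool of their library.

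**Figure D2:**
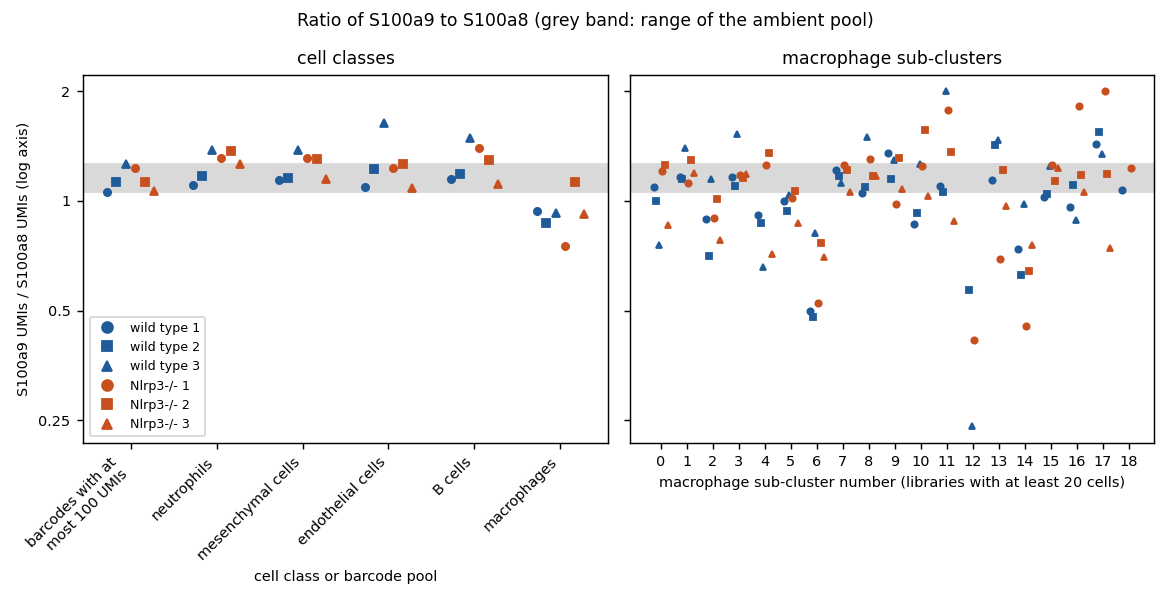
Ratio of S100a9 to S100a8 UMIs on a log axis, on the left for 5 cell classes and the ambient pool and on the right for macrophage sub-clusters in libraries with at least 20 cells. Each point is 1 library in blue (wild type) or orange (Nlrp3-/-), and the grey band spans the ambient pool, from 1.06 to 1.26. Macrophages range from 0.751 to 1.13, and sub-clusters 6 and 12, led by Plac8 and by Cxcl3, lie below the band in every library shown.

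S100a4, which binds non-muscle myosin and is widely used as a marker of motile cells, was highest in macrophages and conventional dendritic cells. In macrophages it was at 4474, 4143 and 3657 CPM in the wild-type libraries and 3197, 3902 and 3228 CPM in the Nlrp3-/- libraries. Conventional dendritic cells followed with 2879 to 4007 CPM, T and NK cells with 821 to 1911 CPM, and pericytes and smooth muscle cells with 515 to 1907 CPM. Mesenchymal cells, which include the fibroblasts that the gene is often taken to mark, held 512 to 942 CPM, 0.427 to 0.823 times the ambient level and below it in 6 of 6 libraries. Neutrophils held 15.3 to 114 CPM, the highest in Nlrp3-/- library 1, against 879 to 1448 CPM in the ambient pool. The drops from dendritic cells to T and NK cells (1.39 ± 0.39 log2, mean ± SD, n = 6) and from progenitors to endothelial cells (2.06 ± 0.66) had the same sign in 6 of 6 libraries (exact permutation p = 0.03125), and the other 9 neighbouring steps in the order did not.

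S100a10, the annexin A2 partner that helps to bring plasminogen activation to the cell surface, shared that low level in neutrophils. Its levels were 1849 to 2309 CPM in macrophages, 1236 to 1869.7 CPM in T and NK cells, 1294 to 1793 CPM in endothelial cells and 1214 to 1579 CPM in conventional dendritic cells, and none of the 3 steps between these types had the same sign in 6 of 6 libraries. In neutrophils it was at 30.9, 46.6 and 19.6 CPM in the wild-type libraries and 94.3, 36.6 and 44.9 CPM in the Nlrp3-/- libraries, again highest in Nlrp3-/- library 1. Erythrocytes held 26.8 to 95.8 CPM. The step from conventional dendritic cells down to mesenchymal cells, at 879 to 1323 CPM, had the same sign in 6 of 6 libraries (0.42 ± 0.27 log2, exact permutation p = 0.03125).

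S100a6 (calcyclin) and S100a11 (calgizzarin), which bind annexins and cytoskeletal proteins, were present across both blood and connective tissue cells. S100a6 was highest in pericytes and smooth muscle cells at 3579 to 6043 CPM, neutrophils at 3244 to 5398 CPM and mesenchymal cells at 3041 to 4929 CPM, and neither of the 2 steps between these types had the same sign in 6 of 6 libraries. B cells, mast cells and basophils and erythrocytes were lowest, with medians of 171, 160.1 and 78.7 CPM. S100a11 was highest in neutrophils, at 4649, 5467 and 4450.2 CPM in the wild-type libraries and 4047, 3178 and 3562 CPM in the Nlrp3-/- libraries. The step down to conventional dendritic cells, at 1886 to 3143 CPM, was 0.64 ± 0.15 log2 and in the same direction in 6 of 6 libraries (exact permutation p = 0.03125). For S100a11, 6 of 11 neighbouring steps had the same sign in every library, more than for any other member.

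S100a13, a carrier for the release of FGF1 and interleukin-1 alpha without a signal peptide, was low in all classes. It ranged from 285 to 443 CPM in endothelial cells, the highest class, through 199.98 to 384 CPM in T and NK cells to 56.3 to 107 CPM in B cells and 11.5 to 37.8 CPM in erythrocytes. The step from endothelial cells to T and NK cells was 0.36 ± 0.14 log2, with the same sign in 6 of 6 libraries (exact permutation p = 0.03125). S100a13 was above the ambient pool in 6 of 6 libraries in endothelial cells, at 1.18 to 1.45 times its level, and in 4 of 6 in T and NK cells. In 8 of the 12 classes, among them macrophages, neutrophils and B cells, it lay below the pool in 6 of 6 libraries. S100a1, a regulator of calcium handling best known from heart and skeletal muscle, was at 113 to 128 CPM in macrophages and 96.6 to 151 CPM in myeloid progenitors, and the step between them was 0.02 ± 0.28 log2 (exact permutation p = 0.906). These levels were 0.878 to 1.62 and 0.705 to 1.69 times the ambient level, above it in 4 of 6 libraries each, and in 9 of the 10 other classes S100a1 lay below it in 6 of 6. Mast cells and basophils held 61.4 to 93 CPM of S100a1, and B cells 5.07 to 12.4 CPM. No cluster met the naming rule for muscle cells.

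S100b was detected at a low level and mainly in connective tissue cells. Pericytes and smooth muscle cells held 20.2, 14 and 13.9 CPM in the wild-type libraries and 10.9, 23.8 and 14.6 CPM in the Nlrp3-/- libraries. Mesenchymal cells held 16, 5.22 and 5.68 CPM and 8, 40.1 and 4.82 CPM, the highest in Nlrp3-/- library 2. Macrophages stood at 0.247 to 1.83 CPM, under the 2.95 to 27 CPM of the ambient pool, and in T and NK cells no UMI was found. The only neighbouring step with the same sign in 6 of 6 libraries was that from mesenchymal cells to macrophages, 2.64 ± 0.90 log2 (exact permutation p = 0.03125). Schwann cells, in which S100b is a standard marker, formed no named cluster. Over the 9 members, 26 of 99 neighbouring steps had the same sign in 6 of 6 libraries, and 0 passed after adjustment over all 99 exact permutation tests (smallest adjusted p = 0.119). With 6 libraries no p can be under 0.03125, so no step could pass unless many others reached that value too.

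**Figure D3:**
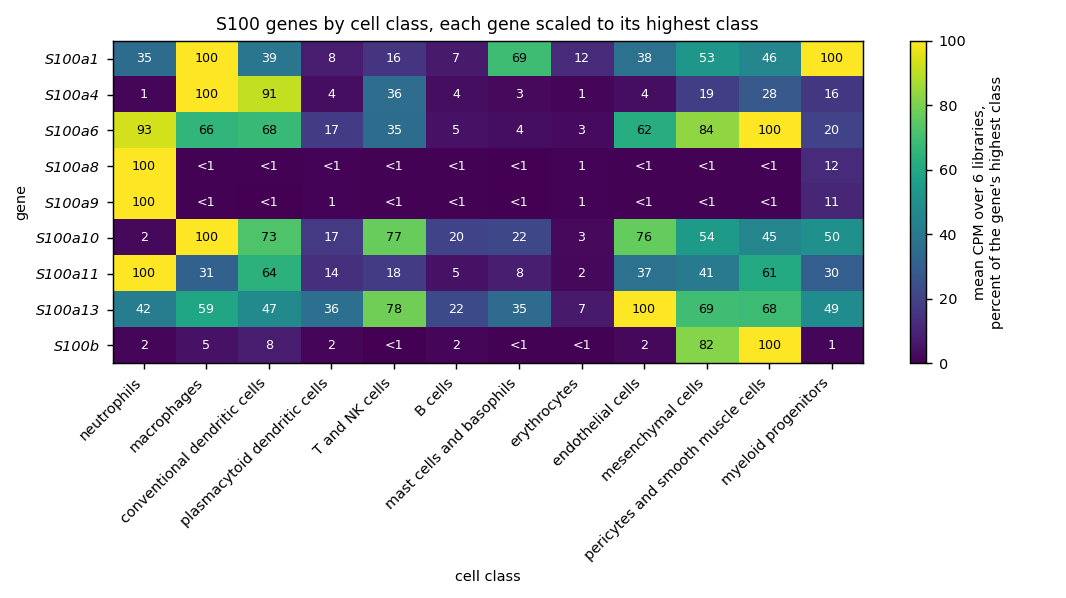
Heat map of the 9 members (rows) over the 12 cell classes (columns), in which each cell gives the mean CPM over 6 libraries as a percent of the gene's highest class, on a colour scale from 0 to 100. Rows are scaled separately, so levels of different genes cannot be compared. S100a4 and S100a10 are near 0 in neutrophils and erythrocytes, S100a8 and S100a9 are near 0 outside neutrophils and myeloid progenitors, and S100b stands out in pericytes and smooth muscle cells and in mesenchymal cells.

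Direct tests between types used the library as a block, with edgeR's quasi-likelihood test and Benjamini-Hochberg adjustment over all genes tested. A type is defined by its own transcripts, so most genes differ, and between neutrophils and macrophages 79.3% of 13645 genes passed beside 8 of the 9 members. The count for the members is close to that share. S100a8 and S100a9 were higher in neutrophils by 8.23 (SE 0.20) and 8.69 (SE 0.25) on the log2 scale (edgeR adjusted p = 1.4e-09 and 2.5e-09), with the macrophage level below that of free RNA. S100a11 was higher in neutrophils by 2.53 (SE 0.10) log2 and S100a6 by 1.33 (SE 0.10) log2. The fitted S100a13 value was higher by 0.38 (SE 0.08) log2, which was no longer called without a filter on low counts or without the library block. Fitted changes use a scaling of the sums (TMM) that the CPM levels do not. On the log2(CPM + 1) scale S100a13 was lower in neutrophils, at a mean of 7.28 against 7.74 in macrophages. The means were 12.02 and 10.34 for S100a11 and 12.12 and 11.64 for S100a6. In both types S100a13 lay below the ambient level in 6 of 6 libraries, so its difference is not read as one of expression. S100a4, S100a10 and S100a1 were lower in neutrophils, with log2 changes of -5.68 (SE 0.39), -4.76 (SE 0.26) and -0.67 (SE 0.14). S100b did not pass.

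Between mesenchymal cells and macrophages 7 of 9 members passed, where 80.8% of 15708 genes did. S100b was higher in mesenchymal cells by 3.72 (SE 0.36) log2 (edgeR adjusted p = 1.1e-05). The log2 changes of the members that were lower in mesenchymal cells were -2.55 (SE 0.11) for S100a4, -1.11 (SE 0.19) for S100a1 and -0.99 (SE 0.09) for S100a10. S100a8 passed as well, at -0.51 (SE 0.13), with both types below the ambient level, and was not called without the library block (-0.47). S100a6 and S100a11 were higher by 0.23 (SE 0.07) and 0.28 (SE 0.10) log2, and without the library block neither was called. The S100a11 call was also lost in 6 other alternatives, among them without wild-type library 2 (0.22) and without Nlrp3-/- library 1 (0.25) or 3 (0.20). Between endothelial and mesenchymal cells 7 of 9 members passed, beside 68.2% of 14812 genes. In endothelial cells S100b was lower, with a log2 change of -5.28 (SE 0.37), as were S100a4 (-2.53), S100a6 (-0.67), S100a1 (-0.65) and S100a11 (-0.34). S100a4 and S100a1 lay below the ambient level in 6 of 6 libraries in both types, as did S100b in endothelial cells at 0.059 to 0.367 times that level. By the rule above the S100a4 and S100a1 differences are not read as ones of expression, which does not show that these genes are absent. The rule cannot decide whether they are expressed. When the ambient profile was subtracted, 0.87% to 3.29% of mesenchymal and 0.845% to 2.04% of endothelial UMIs were removed per library. In mesenchymal cells S100a4 stood at 0.427 to 0.823 times the ambient level. S100a13 and S100a10 were higher there by 0.28 (SE 0.08) and 0.25 (SE 0.07) log2. The calls of S100a11 and S100a13 were lost without the library block, that of S100a11 also without wild-type library 1 (-0.30) or Nlrp3-/- library 1 (-0.28), and that of S100a13 without Nlrp3-/- library 3 (0.25). The S100a10 call was lost without the library block as well (0.24), and the S100a1 call without wild-type library 1 (-0.59). Between macrophages and T and NK cells 6 of the 8 members tested passed, beside 63.5% of 13334 genes. S100a1 was higher in macrophages by 2.87 (SE 0.16), S100a4 by 1.71 (SE 0.12), S100a6 by 1.10 (SE 0.08), S100a11 by 1.01 (SE 0.10) and S100a10 by 0.58 (SE 0.09) log2, while S100a13 was lower, with a log2 change of -0.21 (SE 0.09) (edgeR adjusted p = 0.0443). That last call was lost in 9 alternatives, among them without wild-type library 1 (-0.21), 2 (-0.18) or 3 (-0.22) and without Nlrp3-/- library 3 (-0.15). S100a6 and S100a11 were each above the ambient level in 1 of 6 libraries in macrophages and in 0 of 6 in T and NK cells. S100a13 was above it in 0 of 6 in macrophages and in 4 of 6 in T and NK cells. Values of S100a8 and S100a9 between types that lie under the ambient level are not read, and for mesenchymal cells against macrophages and for macrophages against T and NK cells their direction reversed when doublets were kept.

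The 3 named neutrophil subsets were apart in S100a6 and S100a11 and overlapped in S100a8. S100a6 was at 1039, 1193 and 671 CPM in dividing neutrophils of the wild-type libraries and 1599.6, 506 and 801 CPM in those of the Nlrp3-/- libraries. In granule-rich immature neutrophils it was at 2419 to 3326 CPM and in mature neutrophils at 10121 to 15941 CPM, so the 3 ranges did not overlap. S100a11 followed the same order, with 1462 to 2153, 2832 to 4034 and 7299 to 9491 CPM. S100a8 held 90009 to 151347 CPM in dividing, 106547 to 160257 CPM in granule-rich and 88776 to 134276 CPM in mature neutrophils, with overlapping ranges. S100a9 was at 158913, 153553 and 155477 CPM in dividing neutrophils of the wild-type libraries and 127782, 122763 and 124331 CPM in those of the Nlrp3-/- libraries, which did not overlap, and at 127048 to 162777 CPM in mature neutrophils. In 4 unnamed neutrophil sub-clusters, 2 of them led by inflammatory genes such as Il1a and Cxcl3, S100a8 was at 27200 to 40250 CPM over all their cells, below these ranges, at medians of 1043 to 1390 UMIs per cell. Subsets and sub-clusters were compared without a test.

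Among macrophage subsets S100a4 was highest in osteoclasts, the bone-resorbing cells, here marked by Acp5, Ctsk and others, at 9229, 7859 and 7904 CPM in the wild-type libraries and 6840.1, 6856 and 5752 CPM in the Nlrp3-/- libraries. Every wild-type value was above every Nlrp3-/- value, and the same held in dividing macrophages, at 7591, 5939.5 and 6074 and 4830.1, 5262 and 4802 CPM. Pro-inflammatory macrophages held 2823 to 4045 CPM and anti-inflammatory macrophages 1452 to 2622 CPM. S100a10 was also higher in osteoclasts (2716 to 3726 CPM) than in anti-inflammatory macrophages (948 to 1584 CPM). S100a11 went the other way, with 1527 to 2310.3 CPM in pro-inflammatory macrophages and 714 to 901 CPM in osteoclasts.

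In mesenchymal cells S100b and S100a1 reached their highest values in chondrocytes, which were named by Col2a1, Sox9 and Acan among others. S100b was at 89.7, 279 and 35.3 CPM in chondrocytes of the wild-type libraries and 94, 91.6 and 0 CPM in those of the Nlrp3-/- libraries, where library 3 held only 7 such cells. Chondrocytes had 52.3 to 468 CPM of S100a1, and tenocytes 26.5 to 80.3 CPM. S100b in fibroblast progenitors, the Pi16 and Dpp4 cells, stood at 10.6 to 26.7 CPM, above inflammatory fibroblasts at 2.01 to 4.42 CPM and tenocytes at 1.44 to 5.28 CPM. Of 781 chondrocytes 524 came from Nlrp3-/- library 2, which also had the highest S100b in all mesenchymal cells.

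**Figure D4:**
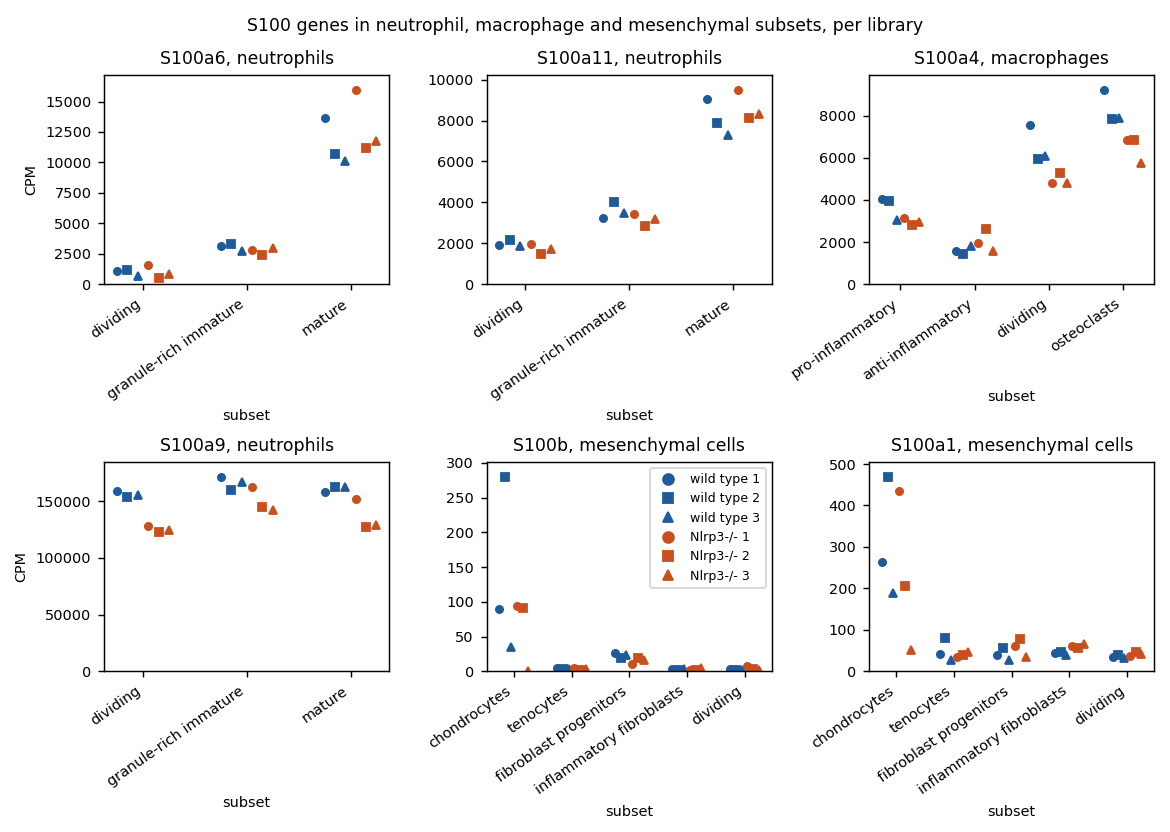
S100a6, S100a11, S100a9, S100a4, S100b and S100a1 in subsets of neutrophils, macrophages and mesenchymal cells, in CPM, with 1 point per library (blue wild type, orange Nlrp3-/-). Each panel starts at 0. S100a6 is lowest in dividing, higher in granule-rich and highest in mature neutrophils, S100a4 is highest in osteoclasts, and S100b in chondrocytes ranges from 0 to 279 CPM.

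Between genotypes 1 of 90 tests of a member in a class passed (edgeR quasi-likelihood test, genotype only, adjusted over all genes of the class), which is 1.11% of them. At an unadjusted p under 0.05 there were 32 tests, 35.6% of the 90, beside 14.7% of all 109984 tests of a gene in a class, and 28 of the 32 were lower in Nlrp3-/- libraries. The 90 tests are not independent, since classes share libraries and free RNA. In 20 of the 90 the CPM values of the groups did not overlap, beside 21.3% of all tests of a gene in a class. Of these, 15 were lower in Nlrp3-/- libraries, where 4.64% of all tests were, and 5 were higher, where 16.7% were. The count depended on single libraries. It was 16 without wild-type library 3, 3 without wild-type library 2 or without Nlrp3-/- library 1, and 0 without wild-type library 1, Nlrp3-/- library 2 or Nlrp3-/- library 3, against 1 with all 6. It was 0 with the replicate block or with the ambient profile subtracted, 10 with DESeq2 and 20 with no filter on low counts. The share of all genes that passed was 0.33% in neutrophils, 0.458% in macrophages, 1.33% in conventional dendritic cells, 0.729% in plasmacytoid dendritic cells, 0.472% in T and NK cells and 0.233% in B cells. It was 0.394% in mast cells and basophils, 0.616% in endothelial cells, 0.121% in mesenchymal cells, 0.0582% in pericytes and smooth muscle cells and 0.518% in myeloid progenitors.

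The test that passed was S100a9 in conventional dendritic cells, at 1430.3, 432 and 461 CPM in the wild-type libraries and 129.8, 271 and 322 CPM in the Nlrp3-/- libraries. The groups did not overlap, and the log2 change was -1.90 (SE 0.41), with an edgeR adjusted p of 0.0372. S100a8 in the same cells was at 1229.9, 321 and 368 and 116, 226 and 319 CPM, a log2 change of -1.75 (SE 0.44) that did not pass (edgeR adjusted p = 0.0644). These values were 1.2% to 4.45% of the ambient level for S100a9 and 1.33% to 4.04% for S100a8. Other neutrophil transcripts were also lower in these cells. All 8 that were tested were lower in Nlrp3-/- libraries, 1 passed, their median log2 change was -0.92, and their summed level was 286 to 1063 CPM in wild-type and 91.7 to 411 CPM in Nlrp3-/- libraries. Their part in the result was not tested. The call was lost in 7 of 16 alternatives, with edgeR or DESeq2 adjusted p from 1.6e-22 to 0.142. It was lost without wild-type library 1 (log2 -1.07) and without Nlrp3-/- library 1 (-1.63), 2 (-1.96) or 3 (-2.18), and after the ambient profile had been subtracted (-3.84).

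In neutrophils S100a8 was lower in every Nlrp3-/- library than in any wild-type library, with a log2 change of -0.53 (SE 0.21) that did not pass (edgeR adjusted p = 0.325). S100a9 differed by -0.41 (SE 0.18) log2 with overlapping groups (edgeR adjusted p = 0.35). S100a11 and S100a6 did not overlap between the groups either, at log2 changes of -0.67 (SE 0.21) and -0.61 (SE 0.22) (edgeR adjusted p = 0.264 and 0.305). Of 4828, 4598 and 2983 neutrophils in wild-type libraries 1 to 3, 1621, 844 and 1136 were mature, and of 2175, 2680 and 2464 in Nlrp3-/- libraries 1 to 3, 138, 481 and 430 were. These counts depend on which sub-clusters were named, since 4 unnamed ones also scored highest for the mature markers, 1 of them with 1310 cells of which 63.1% came from Nlrp3-/- library 2 and 1 with 2898 cells of which 65.5% came from wild-type library 2. The part of the subsets in the class values was not tested. Within mature neutrophils S100a6 was at 13661, 10676 and 10121 and 15941, 11171 and 11773 CPM, and S100a11 at 9037, 7886 and 7299 and 9491, 8141 and 8343 CPM, so that the groups overlapped for both. S100a8 within mature neutrophils was at 130597, 134276 and 115252 and 114199, 88776 and 95515 CPM and did not overlap. The mature subset joined 3 sub-clusters drawn unevenly from the libraries. Wild-type library 1 gave 62.6% of the cells of the first, at 124400 CPM of S100a8 over all its cells, and wild-type library 3 gave 59.95% of the second, at 128800 CPM. In the other one Nlrp3-/- library 2 gave the most, 35.6%, at 89420 CPM, so genotype and sub-cluster cannot be told apart in these values.

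In macrophages S100a8 and S100a9 were lower in every Nlrp3-/- library, with log2 changes of -1.29 (SE 0.23) and -1.27 (SE 0.26) (edgeR adjusted p = 0.0645 and 0.101), and neither passed. Both genes lay below the ambient level there, so these values and the interaction below are not read as expression. Relative to the pool of its library S100a8 was at 0.0419, 0.053 and 0.0489 in wild-type and 0.0477, 0.0301 and 0.034 in Nlrp3-/- libraries, which overlapped. S100a9 was at 0.0372, 0.0407 and 0.0361 and 0.029, 0.0301 and 0.0294, which did not overlap. Of 3664, 5020 and 2196 macrophages in wild-type libraries 1 to 3, 1737, 1908 and 883 were named pro-inflammatory. Of 3699, 2266 and 3915 in Nlrp3-/- libraries 1 to 3, 599, 817 and 824 were. The part of the subsets in the macrophage values of S100a8, S100a9 and S100a4 was not tested. Other neutrophil transcripts were lower in 9 of 12 tests, with a median log2 change of -0.38 and none called, and summed to 409.9 to 887 CPM in wild-type and 416 to 574 CPM in Nlrp3-/- libraries. The difference between the genotype effects in neutrophils and macrophages was 0.71 log2 (SE 0.18) for S100a8 and 0.81 (SE 0.24) for S100a9, and 0 of 9 members passed this edgeR interaction test (adjusted p = 0.395 and 0.451, 2 members at an unadjusted p under 0.05), beside 0.022% of all genes and 1207 of 13645 at an unadjusted p under 0.05. On simulated data this interaction test recovered 14.8% of genes with a difference of 1 log2 unit, so differences of this size could be missed. For macrophages against mesenchymal cells the interaction test called 0 of 9 members (1 at an unadjusted p under 0.05) and 0% of all genes, with 1455 of 15708 genes at an unadjusted p under 0.05. S100a4 in macrophages had a log2 change of -0.42 (SE 0.15) (edgeR adjusted p = 0.197), and S100b one of 1.73 (SE 0.41) from 97 UMIs, below the ambient level.

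Myeloid progenitors had lower fitted values of all 8 members tested in the Nlrp3-/- libraries, 7 of them at an unadjusted p under 0.05, as were 18.5% of all genes there, and 0 passed. S100a9 was at 17428, 21306 and 15427 CPM in the wild-type and 9008, 10454 and 13722 CPM in the Nlrp3-/- libraries, without overlap (log2 -0.92 (SE 0.19), edgeR adjusted p = 0.0889), and at or below the ambient level in 5 of 6 libraries. S100a1 was at 133, 151 and 123 and 96.6, 104 and 112 CPM, also without overlap (log2 -0.59 (SE 0.14), edgeR adjusted p = 0.113). The median log2 change of all genes in progenitors was 0.02. In endothelial cells S100a4 was at 103, 110.0 and 114 CPM in wild-type and 237, 155 and 161 CPM in Nlrp3-/- libraries, with no overlap (log2 0.62 (SE 0.18), edgeR adjusted p = 0.118). These values were 0.0766 to 0.198 times the ambient level, below it in 6 of 6 libraries, and are not read as expression. Other neutrophil transcripts in endothelial cells had a median log2 change of 0.99 and summed to 214 to 751 CPM in wild-type and 422 to 1182 CPM in Nlrp3-/- libraries. Neutrophils themselves held S100a4 at 0.0185 to 0.0956 times the ambient level. The part of neutrophil transcripts in the S100a4 result was not tested.

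S100a10 had higher fitted values in Nlrp3-/- libraries in 6 and lower ones in 5 of 11 classes, with a median log2 change of 0.04. Its CPM values did not overlap in 2 of 11 classes, both higher in Nlrp3-/- libraries, a direction in which 16.7% of all tests of a gene in a class and 17.1% of those in a subset were apart. In mesenchymal cells it was at 879, 1037 and 921 CPM in wild-type and 1246, 1323 and 1059.7 CPM in Nlrp3-/- libraries, with no overlap (log2 0.29 (SE 0.16), edgeR adjusted p = 0.442). In fibroblast progenitors it was at 740.0, 1374 and 1232 and 1949.8, 2335 and 2117 CPM (log2 0.80 (SE 0.26), edgeR adjusted p = 0.199). Of the 158 fibroblast progenitors of Nlrp3-/- library 2, 120 formed a sub-cluster found in no other library, at 3091 CPM of S100a10 against 1407 CPM in the sub-cluster of the rest. Its groups were apart in the same direction in pericytes and smooth muscle cells, tenocytes, inflammatory fibroblasts and dividing mesenchymal cells, and none of these differences passed the edgeR test where it was run. In neutrophils S100a10 was at 0.0222 to 0.0809 times the ambient level, and its values in neutrophil subsets are not read as expression.

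S100a13 had lower fitted values in Nlrp3-/- libraries in 11 of 11 classes, with log2 changes of -0.73 to -0.23 and a median of -0.52. In 8 classes the unadjusted p was under 0.05 and in 0 the adjusted p passed (lowest edgeR adjusted p = 0.127). Of the 4318 genes tested in all 11 classes, 15% were lower in all 11 and 11.2% were higher in all 11. In B cells S100a13 was at 107, 104 and 87.5 CPM in the wild-type and 78.9, 56.3 and 58.5 CPM in the Nlrp3-/- libraries, and its groups did not overlap there or in mast cells and basophils, in both of which it lay below the ambient level. In the other 9 classes they overlapped. S100a11 was lower in 10 of 11 classes, with log2 changes of -0.67 to 0.04, 6 at an unadjusted p under 0.05 and 0 passed.

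**Figure D5:**
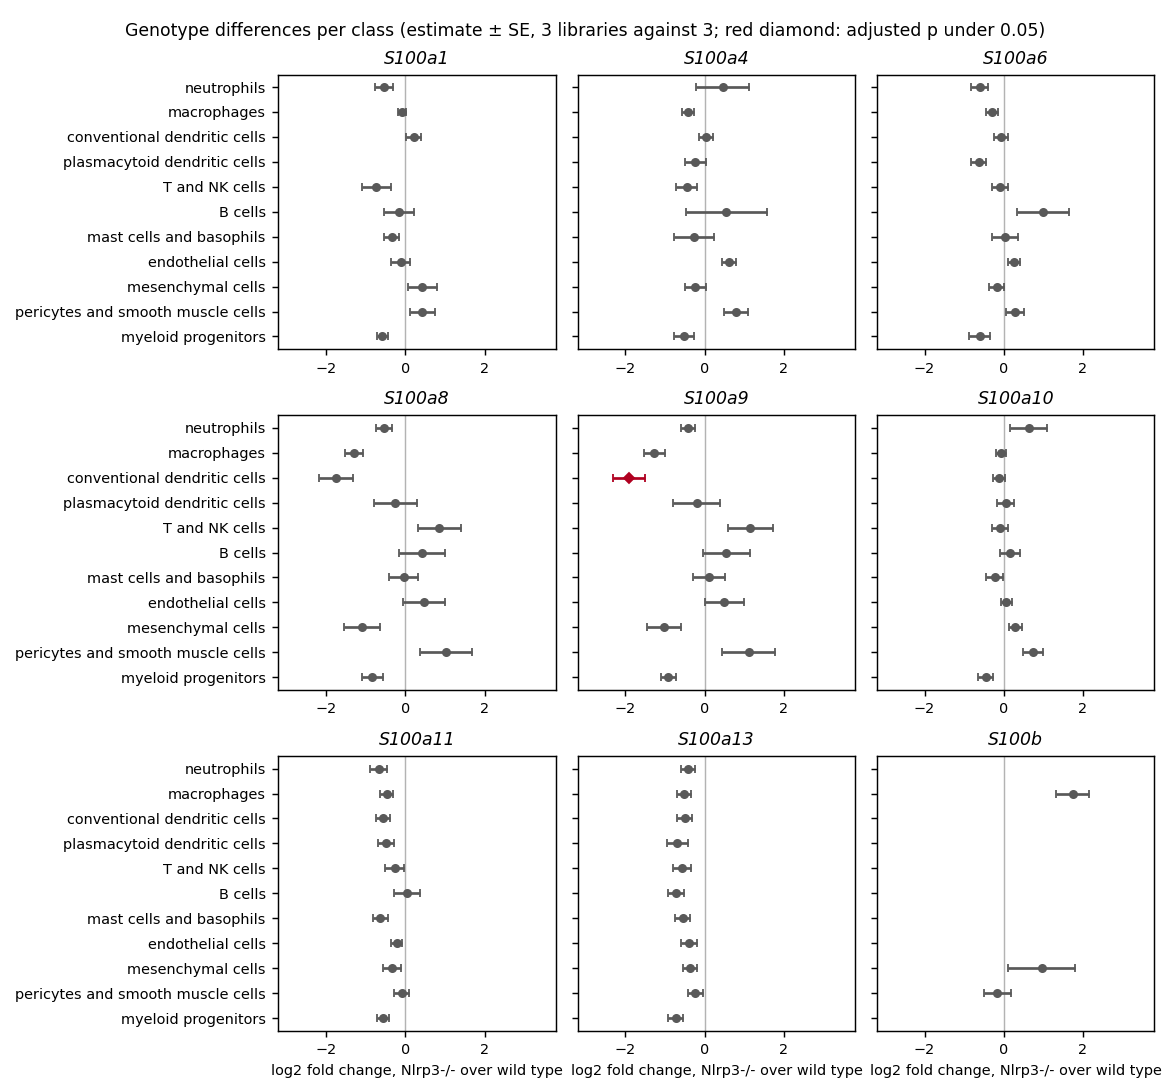
Log2 fold change of each member, Nlrp3-/- over wild-type libraries, in each class where it was tested, from the edgeR fit of UMI sums. Bars give the SE, derived from the F statistic of the test, and a grey line marks 0. A red diamond marks an adjusted p under 0.05, which only S100a9 in conventional dendritic cells reached. S100a13 lies below 0 in all 11 classes.

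In the 10 tested subsets 0 of 83 tests of a member passed with edgeR, and 26 had an unadjusted p under 0.05, beside 15% of all 92055 tests of a gene in a subset. The groups did not overlap in 20 of the 83, 13 lower and 7 higher in Nlrp3-/- libraries, beside 21.7% of all tests, 4.63% lower and 17.1% higher. The share of all genes that passed was 1.13% in mature, 0.528% in granule-rich immature and 0.205% in dividing neutrophils, 0.353% in pro-inflammatory and 0.387% in anti-inflammatory macrophages, 0.457% in osteoclasts and 2.81% in dividing macrophages. It was 0.331% in fibroblast progenitors, 0.123% in inflammatory fibroblasts and 0.149% in dividing mesenchymal cells. S100a8 and S100a9 had lower fitted values in Nlrp3-/- libraries in 10 of 10 subsets, neutrophil subsets and those below the ambient level alike. These subsets lie only within neutrophils, macrophages and mesenchymal cells, and the share of all genes lower in 10 of 10 was not counted. Over the 11 classes S100a8 was lower in 7 and higher in 4 (log2 -1.75 to 1.02). S100a9 was lower in 6 and higher in 5 (log2 -1.90 to 1.16). Nlrp3-/- library 1 held the highest share of both genes in several classes below the ambient level. The share was 0.471% of UMIs in T and NK cells, against 0.058% to 0.145% in the other libraries. In pericytes and smooth muscle cells it was 0.363% against 0.0265% to 0.177%. The part of that library in these directions was not tested.

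The partners and receptors of S100 proteins were read from a list of 11 genes. Ager, the receptor RAGE, was low in every class, with 5.59 to 15.5 CPM in neutrophils and 3.98 to 14 CPM in pericytes and smooth muscle cells against 3.47 to 8.01 CPM in the ambient pool. Tlr4, the other receptor of calprotectin, was at 13.7 to 46 CPM in neutrophils and 13.4 to 27.1 CPM in macrophages. With TMM scaling it was higher in neutrophils by 0.89 (SE 0.22) log2 (edgeR adjusted p = 0.00346), while the CPM ranges overlapped. Cd36, which binds the complex of S100A8, S100A9 and arachidonic acid, was higher in macrophages than in neutrophils (log2 -5.08 (SE 0.25)) and than in mesenchymal cells (log2 -6.38 (SE 0.30)). Anxa1, the partner of S100a11, was higher in neutrophils than in macrophages by 3.15 (SE 0.11) log2, and Anxa2, the partner of S100a10, did not pass (0.03 (SE 0.08)). Ahnak, a scaffold that binds the S100a10 and annexin A2 complex, was lower in neutrophils, with a log2 change of -4.35 (SE 0.30). Of the partners 5 were higher and 4 lower in neutrophils than in macrophages among 10 tested, 2 were higher and 6 lower in mesenchymal cells than in macrophages among 11, 4 were higher and 3 lower in endothelial than in mesenchymal cells among 11, and 7 were higher and 1 lower in macrophages than in T and NK cells among 10.

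Between genotypes no partner passed in the 11 classes. In the subsets 1 passed, Fgf1, a growth factor released with S100a13, in fibroblast progenitors at 1.16, 1.18 and 2.09 CPM in the wild-type and 13.3, 13.2 and 14.6 CPM in the Nlrp3-/- libraries. Its log2 change was 3.22 (SE 0.43) from 55 UMIs (edgeR adjusted p = 0.0175), and the call was lost with the replicate block and without wild-type library 1 or 2 or Nlrp3-/- library 3, at log2 changes of 3.15, 3.08 and 3.11. S100a13 in the same cells was at 286, 396 and 241 and 372, 437 and 270.3 CPM, with overlapping groups. Of the 8 other S100 genes on the list, S100a16 was the most counted, at 290.0 to 398 CPM in endothelial cells and 105 to 202 CPM in mesenchymal cells. It was higher in endothelial than in mesenchymal cells by 0.95 (SE 0.08) log2 (edgeR adjusted p = 2.7e-06). The other 7 had means of at most 1.87 CPM in any class.

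The genes whose class means were most like each member were ranked by Pearson's r over 12 classes among 9896 genes, as a description with no test, since all classes share the same libraries. For S100a8 they were Camp (0.995), Wfdc21 (0.99) and Ngp (0.99), and for S100a9 Camp (0.997), Ngp (0.994) and Slco4c1 (0.989). Camp and Ngp encode proteins of neutrophil granules. S100a6 was most like Anxa2 (0.951), Rbms1 (0.93) and Actn1 (0.912), the first of which is itself a partner of S100 proteins, and S100a11 most like Flna (0.95), Tnfrsf1a (0.949) and Chp1 (0.938). S100a4 was most like Abhd12 (0.923), Pid1 (0.921) and Olfm1 (0.911), and S100a10 most like Klf4 (0.966), Emc4 (0.947) and Alkbh6 (0.942). For S100a13 they were Plec (0.956), Rap1gds1 (0.943) and Kif1b (0.943), for S100a1 B4galt6 (0.878), Gapdh (0.877) and Idh1 (0.87) and for S100b Gpr176 (0.993), Adcy2 (0.992) and Trabd2b (0.991).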

How the data were processed

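The deposited files held counts, that is UMIs per gene and barcode for every barcode, which the authors had made with Cell Ranger (2.1.1 in the submitters' processing notes, a later release in the file headers) against mm10, before cell calling. Barcodes with at least 500 UMIs, 200 genes and at most 10% mitochondrial UMIs were kept if they passed a cell call. Barcodes above a size limit set in each library were called without a test. Smaller ones were called where they differed from the ambient pool (at most 100 UMIs, false discovery rate 0.01). The highest doublet scores were removed at 0.8% per 1000 cells, because the automatic threshold marked few. Cells were clustered with scanpy 1.11.5 and leidenalg 0.10.2 at resolution 1 without S100 genes, named from marker lists, and clusters with over 75% of cells from 1 library were set aside where those cells also had a median UMI count below that of their library, so that 5 clusters past 75% were kept. UMIs of the cells of a type were added up within each library, and a type was tested where no library had fewer than 20 of its cells. Genotypes were compared with edgeR 4.0.16 (TMM, quasi-likelihood, filterByExpr, R 4.3.3) without a block, types with the library as a block, and single values with exact two-sided sign-flip permutation tests over libraries. Calls used a Benjamini-Hochberg adjusted p under 0.05. Each SE of an edgeR log2 change is the size of the change divided by the square root of the quasi-likelihood F statistic. Depth was 97042713 to 134901999 UMIs per library.

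The 9 members were named in every comparison, listed partners and other S100 genes where they passed or their level was described, and for likeness the 3 genes of highest r among non-S100 genes with at least 20 CPM in at least 1 class. Members and lists were chosen with earlier results of these data known. Tested on simulated data, 74.3% of genes changed by 1 log2 unit between genotypes in macrophages and 94.5% of those changed by 2 were recovered over 12881 genes, with 11.2% false among those called. The interaction test of neutrophils against macrophages recovered fewer, 14.8% at 1 log2 unit and 71.7% at 2, with 7.87% false among those called. Replicate numbers did not pair the libraries. Alternatives covered normalization, filters, DESeq2 1.42.0, blocks, free RNA, doublets, clustering and each library left out.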

Additional observations from a re-analysis of the deposited data

Results flagged for a closer look

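S100a6 values differed in opposite directions in different classes. It was higher in every Nlrp3-/- library than in any wild-type library in endothelial cells (log2 change 0.25) and lower in every Nlrp3-/- library in neutrophils (-0.61), a gap of 0.87 on the log2 scale. Mature neutrophils, which had the highest S100a6 of the 3 named subsets, were 844 to 1621 cells per wild-type library and 138 to 481 per Nlrp3-/- library, and their part in the result was not tested. Within them S100a6 was at 13661, 10676 and 10121 CPM in the wild-type and 15941, 11171 and 11773 CPM in the Nlrp3-/- libraries, so it was not lower there. The mature subset joined sub-clusters at 14180, 8237 and 12920 CPM of S100a6, drawn unevenly from the libraries, so genotype and sub-cluster cannot be told apart. In plasmacytoid dendritic cells it was also lower in every Nlrp3-/- library (-0.64), a gap of 0.89 from endothelial cells. The level in plasmacytoid dendritic cells was 0.177 to 0.3 of the ambient level, below it in 6 of 6 libraries, and is not read as expression. In endothelial cells it was above the ambient level in 1 of 6 libraries. No S100a6 change passed the edgeR test in any of these classes, and the difference between the classes was not tested. The groups of 3 libraries were too small for a search for outlying samples.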

How the results depend on the processing

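Of 52 named values under 821 alternatives, 745 kept direction and call, 38 lost the call, 34 gained one and 4 reversed. The number of members called between genotypes, 1 with all libraries, was 0 with no doublet removal, with S100 genes in the clustering, with the ambient profile subtracted and with the replicate number as a block. It was 2 at Leiden resolution 2.0 and 2 without sub-clusters led by another class (an alternative chosen after the data had been seen). It was 10 with DESeq2 and 20 with no filter on low counts, and 0 to 16 when each library was left out in turn. Without the library block 4 members were called for mesenchymal cells against macrophages and 4 for endothelial against mesenchymal cells. With no filter 2 members were called for the genotype effect in neutrophils against macrophages. Leaving out each library gave 8 to 8 members called for neutrophils against macrophages, 6 to 7 for mesenchymal cells against macrophages, 5 to 7 for endothelial against mesenchymal cells, 5 to 8 for macrophages against T and NK cells and 0 for both interaction tests. In the same way 0 other types exceeded the ambient level of S100a8 or S100a9 in every library. With doublets kept S100a8 and S100a9 reversed to 0.30 and 0.53 for mesenchymal cells against macrophages and to -1.32 and -1.57 for macrophages against T and NK cells, all at levels under the ambient pool. The cause was not tested in any of these cases.

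Libraries of the same replicate number did not deviate together, since 3 of 33 correlations of their deviations exceeded 0.1 (range -0.59 to 0.42) and in 0 of 11 classes did all 3 pairs, so the block is no pairing of animals. With doublets kept no cluster was named for conventional dendritic cells, plasmacytoid dendritic cells or mast cells, and with S100 genes in the clustering none for conventional dendritic cells, so those counts rest on fewer tests. Counting depth limits S100b, Ager and Fgf1, which had few UMIs in most classes.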
